A study of Mus musculus with 36 samples.

Results

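Glucose enters a heart cell through carriers, is split by glycolysis into pyruvate, and can be stored as glycogen or leave the cell as lactate. The genes for these steps were described here as 1 set of 32 genes, picked by symbol for glucose transport (Slc2a1, Slc2a4), upper glycolysis (Hk1, Hk2, Gpi1, Pfkm, Pfkl, Pfkp, Pfkfb1, Pfkfb2, Pfkfb3, Aldoa, Tpi1), lower glycolysis (Gapdh, Pgk1, Pgam1, Pgam2, Eno1, Eno3, Pkm), lactate handling (Ldha, Ldhb, Slc16a1, Slc16a3), glycogen (Pgm2, Pygm, Pygb, Pygl, Gys1, Gbe1, Ugp2) and the reverse step of fructose bisphosphatase (Fbp2). All 32 had a row in the tables, of 20720 genes listed. The row named Pgm2 lies on chromosome 4 and is the gene that RefSeq now calls Pgm1.

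Single cells of the left ventricle were sorted 1 per well into 384-well plates and their polyadenylated RNA was counted from the 3′ end with SORT-seq, in which each molecule carries a random tag, the unique molecular identifier (UMI). The mice were male, C57BL/6 and 8 weeks old. They had sham surgery with collection at day 1 (4 plates) or day 14 (8 plates), ischemia-reperfusion (IR), in which the left anterior descending coronary artery was tied for a limited time and then released, with collection at day 1 (9 plates), day 3 (7 plates) or day 14 (3 plates), or myocardial infarction (MI), in which the same artery stayed tied, with collection at day 3 (5 plates). Tissue came from the infarcted region, or from the matching region of sham hearts. No genetic change was made in any group.

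The adult heart muscle cell burns mainly fatty acids, and draws on glucose through the insulin-regulated carrier GLUT4, the product of Slc2a4. Low oxygen stabilises hypoxia-inducible factors, which are known to bind promoters of glycolytic genes, of GLUT1 (Slc2a1) and of the lactate exporter MCT4 (Slc16a3). Many steps have a muscle form and a more general form, such as Ldhb and Ldha, Pgam2 and Pgam1, or Pygm and Pygb, so the mix of forms differs between cell types.

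The 250 bases before a RefSeq-listed start site are shown for 5 genes named in the results that follow: 3 that were lower in macrophages at IR day 3 than at IR day 1 (Slc2a1, Slc16a3, Gapdh) and 2 that were lower in cardiomyocytes at IR day 1 than after sham surgery (Ldhb, Pygm). Capitals mark ACGTG or GCGTG on either strand (read as CACGT or CACGC on the other), the core letters of the element that hypoxia-inducible factors bind. Sequences are from RefSeq on GRCm38.p6, written 5′ to 3′ on the strand of the gene. For Slc16a3 and Gapdh the start site listed lies inside the annotated gene (chr11:120948484-120959000 and chr6:125161852-125166467), so these are not the bases before its outermost start.
Slc2a1, chr4:119108495-119108744, plus strand: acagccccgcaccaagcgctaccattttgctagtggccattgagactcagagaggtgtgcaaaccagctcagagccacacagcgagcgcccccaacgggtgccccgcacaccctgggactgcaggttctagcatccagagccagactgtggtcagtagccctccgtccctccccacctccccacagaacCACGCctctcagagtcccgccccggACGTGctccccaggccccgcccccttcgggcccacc
Slc16a3, chr11:120948817-120949066, plus strand: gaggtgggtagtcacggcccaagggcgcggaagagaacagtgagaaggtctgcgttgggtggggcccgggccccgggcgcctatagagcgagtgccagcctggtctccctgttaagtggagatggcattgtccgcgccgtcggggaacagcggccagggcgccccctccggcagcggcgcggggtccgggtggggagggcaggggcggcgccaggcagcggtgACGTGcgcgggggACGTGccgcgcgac
Gapdh, chr6:125165774-125166023, minus strand: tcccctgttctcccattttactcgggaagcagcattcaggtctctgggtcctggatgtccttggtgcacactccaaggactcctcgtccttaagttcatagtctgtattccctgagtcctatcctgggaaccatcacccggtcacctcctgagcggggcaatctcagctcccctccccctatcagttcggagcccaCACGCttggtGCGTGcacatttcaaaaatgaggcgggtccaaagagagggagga
Ldhb, chr6:142507958-142508207, minus strand: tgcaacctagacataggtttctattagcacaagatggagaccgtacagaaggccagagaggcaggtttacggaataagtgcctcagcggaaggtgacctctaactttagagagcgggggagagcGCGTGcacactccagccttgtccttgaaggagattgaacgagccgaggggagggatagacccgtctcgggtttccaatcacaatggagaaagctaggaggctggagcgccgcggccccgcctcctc
Pygm, chr19:6384158-6384407, plus strand: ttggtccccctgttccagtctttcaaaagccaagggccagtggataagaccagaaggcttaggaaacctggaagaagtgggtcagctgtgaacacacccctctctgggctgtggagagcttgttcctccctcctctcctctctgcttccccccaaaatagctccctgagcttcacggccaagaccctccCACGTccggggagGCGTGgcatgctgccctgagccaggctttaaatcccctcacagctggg
Slc2a1, Slc16a3, Gapdh and Pygm each held 2 matches and Ldhb 1. Of 31 members with a promoter in the table, 26 held a match in at least 1 listed promoter, as did 41.5% of all 27025 genes listed. Counted by promoter, 35 of 48 member promoters held one, and over all promoters 38.6% did (12679 of 32851). A match in such a short stretch is a description of the letters and says nothing about binding in these cells.

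Of 13824 wells, 3146 held at least 1000 UMIs, and 3126 were used as cells after 20 wells copied from another plate were removed. Replicates 2 and 7 of sham day 14 matched each other well by well (34 and 42 wells of the shallower copy correlated best with the same position on the other plate), and were averaged as 1 plate, named replicate 2. Cells of both are in the counts of cells, including the 3126. The wells removed were copies found on other plates: 16 wells of sham day 14 replicate 2 matched IR day 3 replicate 6, 17 and 6 wells of IR day 1 replicate 9 matched replicates 5 and 8, and 4 wells of IR day 1 replicate 3 matched replicate 2, of which 20 held at least 1000 UMIs. Cells were clustered and clusters named from marker genes as cardiomyocyte-like, macrophage-like, endothelial-like, fibroblast-like or neutrophil-like, and counts of a class were summed per plate, with at least 5 cells. Levels (CPM) are a gene's UMIs for each 1000000 UMIs of the class on that plate, without mitochondrial and spike-in RNA. The labels do not tie plates to mice. Per the study's methods 3 mice were used per condition, fewer than the 5 MI plates, so plates can come from the same mouse and p-values over plates may be too small. Of the 10 cardiomyocyte markers, 10 were raised in clusters 0 and 1, 6 in cluster 12 and 5 in cluster 3. Cardiomyocytes of the MI plates stood apart. There were 19 of them, 2 plates passed with 6 cells each, their median depth was 8820 UMIs against 1952 to 2490 in the other groups, and a median of 5.83% of their UMIs were mitochondrial against 75.6% to 83.5%. The MI plates also carry a separate protocol label, so MI and a library batch cannot be told apart.

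The 5 muscle forms Pfkm, Pgam2, Eno3, Ldhb and Pygm marked cardiomyocytes. Each was higher in cardiomyocytes than in macrophages on 14 of 14 plates that held both classes, than in endothelial cells on 18 of 18 and than in fibroblasts on 13 of 13. Median Ldhb, the lactate dehydrogenase subunit typical of heart, was 1096 CPM in cardiomyocytes and 24.1 CPM in macrophages of the same plates, and median Pygm, muscle glycogen phosphorylase, was 747 and 21 CPM. Other members leaned to macrophages. Slc16a3 was higher in macrophages on 12 of 14 plates (median 87.4 CPM against 0 in cardiomyocytes), Pgam1, the general phosphoglycerate mutase, on 13 of 14 (1079 against 212), and Pkm, pyruvate kinase, on 13 of 14 (1567 against 979). Liver glycogen phosphorylase, Pygl, was higher in macrophages on 12 of 14 (89.7 against 0) and Pfkfb3, the inducible bifunctional enzyme of fructose bisphosphate control, on 11 of 14 (70.4 against 0). Ugp2, which makes the glucose donor for glycogen, was higher in fibroblasts than in cardiomyocytes on 10 of 13 plates (218 against 136).

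Pooled over plates, the muscle or heart form made up most of its family in cardiomyocytes, and for Ldhb, Pgam2, Pfkm, Slc2a4 and Pygm less in the other classes. Ldhb was 61.2% of Ldha plus Ldhb in cardiomyocytes, 21.9% in endothelial cells, 1.64% in macrophages and 1.19% in fibroblasts. Pooling gives the deep MI plates the most weight, and the shares differed between groups. Fibroblasts held 31 UMIs of Ldhb and 58 of Ldha on sham plates, 1 and 1217 at IR day 1, 35 and 327 at IR day 3, 11 and 33 at IR day 14, and 78 and 11109 after MI. Pgam2 was 76.2% of its pair in cardiomyocytes and 0.277% in macrophages, and Slc2a4 was 95.4% of the summed glucose carriers in cardiomyocytes and 2.85% in macrophages. The endothelial shares were between those of the other classes, at 19% for Pgam2 and 41.5% for Slc2a4. The summed level of the 10 cardiomyocyte markers in endothelial cells of sham plates was 12403 to 37294 CPM, and its part in the endothelial shares was not tested. Pygm was 71.3% of the phosphorylases in cardiomyocytes and 63.1% in endothelial cells, against 7.2% in macrophages and 13.7% in fibroblasts. The hexokinases and enolases did not divide the classes in this way. Hk2 was 61.2% of the hexokinases in cardiomyocytes, 66% in fibroblasts, 54.6% in macrophages and 19.5% in endothelial cells. Eno3 made up 96.2% or more of Eno1 plus Eno3, the enolases counted here, in each of these classes, since Eno1 had almost no UMIs.

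In cardiomyocytes 27 of the 32 members had enough counts for the test across 4308 genes. Pfkfb1, Pfkfb3, Eno1, Slc16a3 and Pygl did not. Slc16a3 was at 0 UMIs in the 9 sham plates. Eno1 had 20 UMIs in all kept wells, while its near-identical copy Gm5506 had 113, so its level is uncertain. The same holds to a lesser degree for Gapdh, Aldoa, Ldha, Pgk1, Pgam1, Tpi1 and Pkm, which also have processed copies in the genome.

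At day 1 after IR, Slc2a4, the phosphofructokinase Pfkm, Ldhb and both phosphorylases Pygm and Pygb were among the members lower in cardiomyocytes than at day 1 after sham surgery. Of the 27 members tested, 11 fell (8.91% of all genes tested fell) and 0 rose (3.62% of all genes rose), by edgeR's quasi-likelihood test with Benjamini-Hochberg adjustment over all genes at 0.05. The median log2 fold change was -1.48 over the members and -0.58 over all genes, and -1.34 over the members with Pfkfb2 and Fbp2, which were at 0 UMIs after IR, put at their bound. By role, 1 of 2 carriers, 5 of 9 upper glycolysis genes, 2 of 6 lower glycolysis genes, 1 of 3 lactate genes and 2 of 6 glycogen genes fell. The comparison rests on 4 sham plates and on 3 IR plates with 6, 5 and 12 cells.

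Slc2a4 was at 582, 485, 479 and 273 CPM on the sham day 1 plates and at 82.9, 0 and 0 CPM on the IR day 1 plates. The groups did not overlap, and the fitted log2 difference was -4.73 ± 0.77 (SE, adjusted p = 4.16e-06, edgeR). With 2 UMIs against 414, the summed level was 19.3-fold lower (95% counting interval 5.3 to 159.7). The other carrier, Slc2a1, was at 25.1, 5.51, 53.2 and 21.6 CPM after sham and 124, 0 and 79.4 CPM after IR, so its groups overlapped, and it did not pass.

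Among upper glycolysis genes, Pfkm, the muscle phosphofructokinase that commits sugar to glycolysis, was at 377, 314, 406 and 324 CPM after sham and 41.5, 163 and 26.5 CPM after IR (log2 difference -3.08 ± 0.65, adjusted p = 4.44e-04, edgeR). Its groups did not overlap. Pfkfb2, the heart form of the enzyme that makes the activator of phosphofructokinase, was at 86.2 to 179.9 CPM after sham and at 0 UMIs on the 3 IR plates, at least 3.2-fold lower (floor of 3 UMIs over the group; adjusted p = 8.19e-04, edgeR). Gpi1, the isomerase that feeds phosphofructokinase, was at 295 to 420.2 CPM after sham and at 41.5, 0 and 238 CPM after IR (-2.14 ± 0.59, adjusted p = 0.00877, edgeR). Aldoa and Tpi1, the next enzymes, also fell (log2 differences -1.48 and -1.73, adjusted p = 0.0118 and 0.0161, edgeR). Hk2, the insulin-responsive hexokinase, did not pass: it was at 205 to 325 CPM after sham and at 746, 109 and 159 CPM after IR.

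Ldhb was at 1515, 1151, 1337 and 921 CPM after sham and 373, 272 and 344 CPM after IR (-2.48 ± 0.47, adjusted p = 9.65e-05, edgeR). Its partner Ldha, at 374 to 697 CPM after sham and 456, 652 and 741 CPM after IR, overlapped between groups. Pygm was at 975 to 1144 CPM after sham and at 207, 706 and 159 CPM after IR (-2.40 ± 0.49, adjusted p = 2.66e-04, edgeR). Pygb, the brain form of the phosphorylase, was at 242 to 492 CPM after sham and at 0, 0 and 52.9 CPM after IR, where 2 UMIs against 324 gave a 15.1-fold lower level (95% counting interval 4.14 to 125). Both phosphorylases thus lay below the sham range on the 3 IR plates. Eno3, muscle enolase, and Pgam2 fell as well (log2 differences -1.50 and -1.25, adjusted p = 0.0171 and 0.0482, edgeR), with Pgam2 overlapping between groups. The largest difference that did not pass was that of Fbp2, at 0 UMIs after IR and 35 after sham, at least 1.09-fold lower (adjusted p = 0.0663, edgeR).

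Another scaling, edgeR's RLE, moved the median of all genes in this comparison from -0.58 to 0.08, and left 6 members lower. The median over the members moved from -1.48 to -0.80 under RLE and -0.81 under DESeq2. Slc2a4, Pfkm, Pfkfb2, Ldhb, Pygm and Pygb passed under both scalings, whereas Gpi1, Aldoa, Tpi1, Pgam2 and Eno3 did not pass under RLE. Relative to the median of all genes, the differences of Slc2a4, Pfkm, Ldhb, Pygm and Pygb were -4.15, -2.50, -1.90, -1.82 and -3.83 on the log2 scale, and those of Gpi1, Aldoa, Tpi1, Pgam2 and Eno3 were -1.56, -0.90, -1.15, -0.67 and -0.92. DESeq2 called 7 members lower and Pgam1 higher. Without sham day 1 replicate 1, IR day 1 replicate 1 or IR day 1 replicate 3, 7 members passed. The calls lost on leaving out 1 plate were those of Gpi1, Aldoa, Tpi1, Eno3 and Pgam2, the last for 6 of the 7 plates. Markers of other classes moved with the comparison. Over the sham plates of both days the neutrophil list summed to 57 to 496 CPM in cardiomyocytes, and at IR day 1 to 543 to 871 CPM, with 6 of 6 markers seen. The fibroblast list summed to 136 to 687 CPM on those sham plates and to 456 to 3149.8 CPM at IR day 1. Against sham day 1, the macrophage list went from 38 to 144 CPM to 109 to 688 CPM, and the erythrocyte list, with Hba-a1 at 0 after IR, from 14.4 to 209 CPM to 52.9 to 2933 CPM. Without cells in which markers of another class made up over 1% of UMIs, the same 11 members were lower. RNA of other classes in smaller amounts stays in under this cut, and its part was not tested. The classes of cells also shifted: 26 of 34 cardiomyocytes at IR day 1 lay in cluster 3, led by Sprr1a, Nmrk2 and Nppa, while most sham cells lay in clusters 0 and 1.

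**Figure D1:**
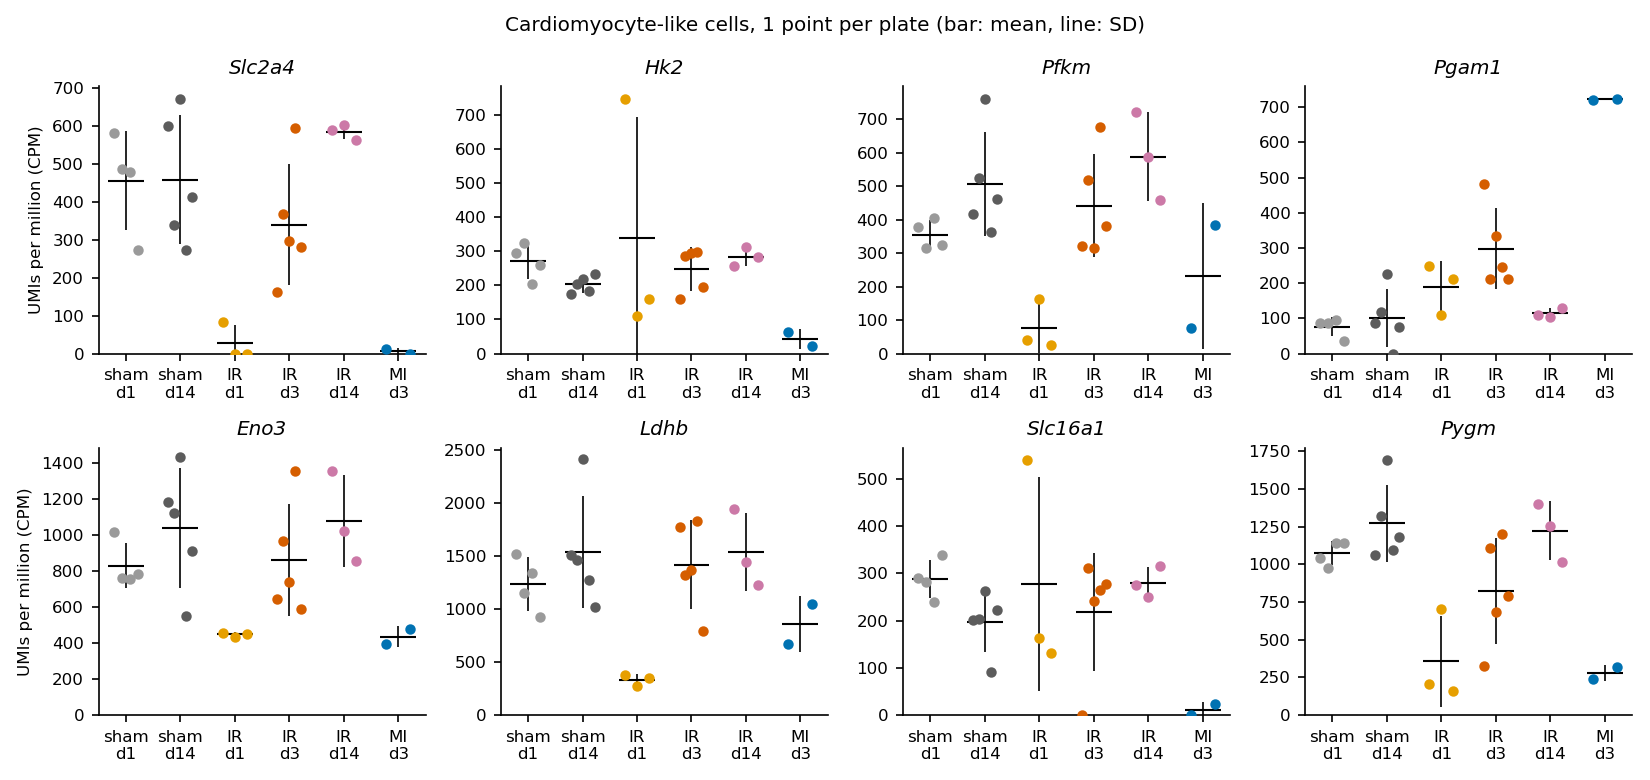
Level in cardiomyocytes (CPM) of Slc2a4, Hk2, Pfkm, Pgam1, Eno3, Ldhb, Slc16a1 and Pygm on each plate, by group (points, plates; bars, mean; lines, SD). Slc2a4 and Pygm lie below the sham range at IR day 1 and MI day 3, and Pgam1 lies at 722 and 724 CPM on the MI plates against at most 225 CPM on sham plates.

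At day 14 after IR no member passed the test against sham day 14. edgeR called 0 of 27 members (0.162% of all genes higher and 0.0464% lower), with 2 at an unadjusted p under 0.05, and DESeq2 called 0, with 0 at an unadjusted p under 0.05. Median log2 differences were 0.14 over the members and 0.06 over all genes. Slc2a4 was at 589, 601 and 562 CPM after IR and 598, 339, 670.0, 273 and 411 CPM after sham, so the groups overlapped, and its log2 difference was 0.29 ± 0.35. Pygm was at 1399.8, 1257 and 1013 CPM after IR and between 1065 and 1693 CPM after sham (0.00 ± 0.37). The largest log2 difference was that of Gapdh, 1.04 ± 0.41 (adjusted p = 0.73, edgeR).

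The IR effect at day 1 was lower than that at day 14 for 7 members (5.29% of all genes) and higher for 0 (1.04% of all genes), by an interaction term in the same fit. These were Slc2a4 (-5.03 ± 0.87, adjusted p = 1.11e-04), Pfkm (-3.30 ± 0.75, adjusted p = 0.00377), Ldhb (-2.55 ± 0.58, adjusted p = 0.00413), Pygb (-4.69 ± 0.90, adjusted p = 5.64e-04), Pfkfb2 (-7.98 ± 1.84, adjusted p = 0.00443), Gpi1 (-2.57 ± 0.70, adjusted p = 0.0159) and Pygm (-2.40 ± 0.60, adjusted p = 0.0101). The values of Pfkfb2, Slc2a4 and Pygb rest on 0, 2 and 2 UMIs at IR day 1. The median was -1.57 over the members and -0.66 over all genes. Under RLE the median was -0.85 over the members and -0.02 over all genes, and 5 members passed, without Gpi1 and Pygm.

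At day 3 after IR, cardiomyocytes differed from sham in 1 member. Pgam1 rose, which as 1 of 27 tested is near the share of all genes (4.32% of all genes rose). Against this 0 members fell (2.16% of all genes fell), with medians of -0.16 over the members and -0.02 over all genes. No sham plate of day 3 was analysed here, so the sham groups of day 1 and day 14 were used together, with equal weight. Pgam1 was at 483, 212, 333, 247 and 213 CPM on the IR day 3 plates, and its lowest, median and highest sham levels were 0, 87.1 and 225 CPM. The highest sham plate overlapped with the lowest IR plates, and the log2 difference was 1.07 ± 0.30 (adjusted p = 0.0134, edgeR). The call was lost without sham day 14 replicate 1 or 8, or without IR day 3 replicate 4 or 7. It was also lost against sham day 14 alone (0.87, adjusted p = 0.214), with the replicate block (1.25, adjusted p = 0.26) and with cells thinned to 1000 UMIs (1.04, adjusted p = 0.0717, edgeR). Markers of other classes moved with it: the fibroblast list summed to 136 to 687 CPM in sham cardiomyocytes and 610.0 to 4759 CPM at IR day 3, and the macrophage list to 0 to 144 and 185 to 1302 CPM. Without cells in which markers of another class made up over 1% of UMIs, the difference was 1.09 (adjusted p = 0.0118, edgeR). That cut leaves smaller amounts of such RNA in place, whose part was not tested. Slc2a4 was at 161, 368, 296, 593 and 280.1 CPM, and 4 of these 5 plates lay within the sham range of 273 to 670.0 CPM. Gapdh had the largest difference that did not pass (-1.09 ± 0.36, adjusted p = 0.052, edgeR).

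At day 3 after MI, more members were lower than higher against sham. Of 27 members, 3 rose (13.8% of all genes rose) and 12 fell (21.8% of all genes fell), and the medians were -0.40 over the members and -0.23 over all genes, or -0.35 over the members with Slc2a1, at 0 UMIs, put at its bound. The share that rose, 3 of 27, was not above that of all genes. The share that fell is 12 of 27 beside a background in which over 1 gene in 5 fell. This comparison shares its sham plates with that of IR day 3, and rests on 2 MI plates.

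Both glucose carriers and 3 of 9 upper glycolysis genes fell. Slc2a4 was at 12.7 and 0 CPM on the MI plates, below the 9 sham plates (lowest, median and highest 273, 479 and 670.0 CPM). The log2 difference was -6.44 ± 0.87 (adjusted p = 5.80e-09, edgeR), and 1 UMI against 763 gave a 62.3-fold lower level (95% counting interval 11.2 to 2465). Slc2a1 was at 0 UMIs on the MI plates and 37 over the sham plates, at least 1.01-fold lower (adjusted p = 0.0448, edgeR), so the counts set almost no lower limit on its fold. The Slc2a1 call was lost on leaving out any 1 of 8 plates: sham day 1 replicate 1 or 3, sham day 14 replicate 1, 5, 6 or 8, or either MI plate. Hk2 was at 63.3 and 22.6 CPM against 174, 219 and 325 CPM, without overlap (-3.01 ± 0.63, adjusted p = 9.79e-05, edgeR). Pfkm was at 76 and 385 CPM, and the second plate lay within the sham range of 314 to 761 CPM (-1.82 ± 0.49, adjusted p = 0.00243, edgeR). Pfkfb2 was at 25.3 and 22.6 CPM, below the sham plates at 86.2 to 273 CPM, and 3 UMIs against 184 gave a 5.01-fold lower level (95% counting interval 1.69 to 24.5). Pfkp, the platelet form of phosphofructokinase, went the other way: 152 and 226 CPM against 0 to 71.9 CPM (1.70 ± 0.52, adjusted p = 0.00764, edgeR).

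In lower glycolysis 2 of 6 genes tested rose, Pgam1 and Pgk1, and 1 fell, the muscle form Eno3. Pgam1 was at 722 and 724 CPM, above the sham range of 0 to 225 CPM (2.16 ± 0.36, adjusted p = 1.61e-06, edgeR). Pgk1, the first enzyme of the pathway to make ATP, was at 1001 and 1222 CPM, above the sham range of 91.1 to 506 CPM (1.25 ± 0.36, adjusted p = 0.00476, edgeR). Eno3 was at 393 and 475 CPM, below the sham range of 547 to 1431 CPM (-1.88 ± 0.47, adjusted p = 9.02e-04, edgeR). Pgam2 did not pass, at 608 and 679 CPM against 220.2 to 804 CPM, nor did Gapdh and Pkm. The fibroblast list summed to 633 and 1992 CPM in the MI cardiomyocytes, against 136 to 687 CPM on sham plates, with Lum and Dpt at 0. Without cells in which markers of another class made up over 1% of UMIs, the log2 differences were 2.15 for Pgam1 and 1.24 for Pgk1 (adjusted p = 1.58e-06 and 0.005, edgeR). Smaller amounts of such RNA stay in under that cut, and their part was not tested. With cells thinned to 1000 UMIs, Pgk1 did not pass (0.24, adjusted p = 0.777, edgeR).

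Among lactate genes, Slc16a1, which encodes the carrier MCT1, was at 0 and 22.6 CPM against a sham range of 91.1 to 338 CPM. The log2 difference was -5.50 ± 0.90 (adjusted p = 8.40e-07, edgeR), and 1 UMI against 384 gave a 31.4-fold lower level (95% counting interval 5.6 to 1242). Bsg, outside the 32 genes, encodes basigin, the partner that brings MCT1 to the cell surface, and fell by 4.69 on the log2 scale (25 UMIs against 5147, adjusted p = 9.20e-09, edgeR). Ldhb was at 671 and 1041 CPM against 921, 1337 and 2412 CPM (-1.44 ± 0.44, adjusted p = 0.00694, edgeR), with 1 MI plate inside the sham range. Ldha, at 1102 and 1743 CPM against 364 to 1224 CPM, also overlapped and did not pass.

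All 3 glycogen genes that passed were lower. Pygm was at 241 and 317 CPM against 975, 1139 and 1693 CPM (-2.83 ± 0.52, adjusted p = 7.91e-06, edgeR), Pygb at 203 and 226 CPM against 242 to 804 CPM (-1.61 ± 0.49, adjusted p = 0.00721, edgeR), and Gys1, glycogen synthase, at 38 and 45.3 CPM against 75.9 to 195 CPM (-2.26 ± 0.66, adjusted p = 0.00468, edgeR). None of these overlapped with sham. Fbp2, at 1 UMI against 65, had a 5.31-fold lower level with a counting interval that spans no difference (0.92 to 213; adjusted p = 0.0306, edgeR). Of 52 further pathway genes listed, 16 were tested. Gyg, the primer of glycogen, rose (1.76 ± 0.39, adjusted p = 1.75e-04, edgeR). Besides Bsg, Gaa, the lysosomal glucosidase (-4.74 ± 0.84), Gsk3b, a kinase of glycogen synthase (-1.95 ± 0.75), and Ppp1r3c, a phosphatase subunit that binds glycogen (-2.34 ± 0.69), fell.

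RLE and DESeq2 each called 3 members higher and 10 lower after MI, without Slc2a1 and Fbp2, and RLE moved the median of all genes from -0.23 to 0.06. The median over the members was less stable: it was -0.14 under RLE and DESeq2, -0.13 without the ribosomal RNA gene Rn45s, -0.70 against sham day 14 alone, -0.95 with plates of at least 2 cells and -1.31 with cells thinned to 1000 UMIs (19 members tested). Relative to the median of all genes, the differences of Pgam1, Pgk1 and Pfkp were 2.39, 1.48 and 1.93 and those of Slc2a4, Slc16a1 and Pygm were -6.21, -5.27 and -2.60. Without MI replicate 2, 5 members passed and without MI replicate 3, 7 did. Slc2a4, Pgam1, Slc16a1 and Pygm passed in both. Each of these fits has 1 MI plate, which is assumed to vary like the plates of the other groups.

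**Figure D2:**
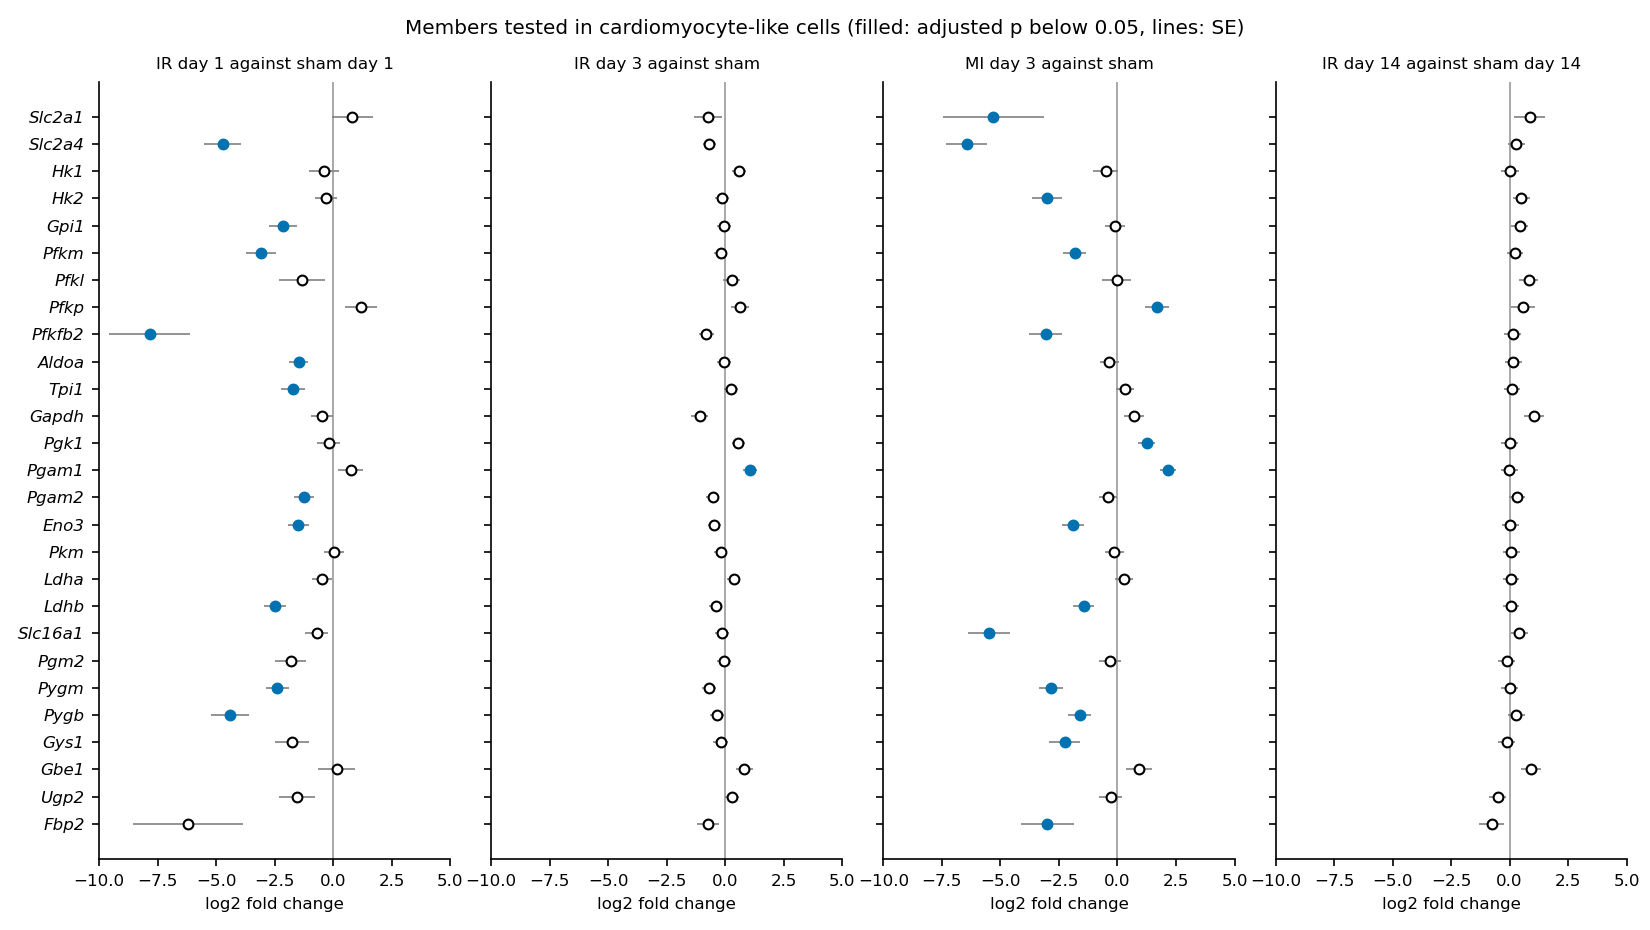
Log2 fold change with SE of the 27 members tested in cardiomyocytes for IR day 1 against sham day 1, IR day 3 and MI day 3 against sham, and IR day 14 against sham day 14 (filled points, adjusted p below 0.05 by edgeR). Filled points are 11 at IR day 1, 1 at IR day 3, 15 at MI day 3 and 0 at IR day 14.

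Set directly against IR day 3, MI cardiomyocytes differed in 10 members. Of these, 2 were higher, a share of the 27 tested near that of all genes (7.17% of all genes were higher). The other 8 were lower (15.8% of all genes were lower), with medians of -0.57 over the members and -0.27 over all genes. The median over the members was -0.35 without Rn45s and -1.64 with cells thinned to 1000 UMIs (19 members tested). Slc2a4 (-5.75 ± 0.92, adjusted p = 1.90e-06), Slc16a1 (-5.34 ± 0.93, adjusted p = 9.55e-06), Hk2 (-2.85 ± 0.66, adjusted p = 7.26e-04) and Pygm (-2.12 ± 0.52, adjusted p = 0.00143) were the lowest relative to their error. For Slc2a4, 1 UMI against 456 gave a 43.6-fold lower level (95% counting interval 7.78 to 1724), and for Slc16a1, 1 UMI against 381 gave 36.4-fold (6.49 to 1441). Slc16a1 was at 310.2, 240.3, 264 and 277 CPM on 4 IR day 3 plates and at 0 on replicate 3, which held 5 cells, so it did overlap with the MI plates at 0 and 22.6 CPM. Pfkm, Pfkfb2, Eno3 and Gys1 were also lower (-1.61, -2.25, -1.41 and -2.06). Pgam1 (1.09 ± 0.40, adjusted p = 0.0386) and Gapdh (1.80 ± 0.48, adjusted p = 0.00362) were higher. Without MI replicate 2, 3 members passed, without MI replicate 3, 5, and without IR day 3 replicate 4 or 7, 6. Among the further genes, Bsg (-3.82 ± 0.63), Gaa (-4.45 ± 0.87) and Ppp1r3c (-2.21 ± 0.72) were lower.

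The MI cardiomyocytes all lay in cluster 3, as did 190 of 288 cells at IR day 3, so the members were also read within that cluster, as pooled levels with 95% Poisson intervals that cover counting error only. Slc2a4 was at 33.4 CPM (6.89 to 97.6) at IR day 1, 277 CPM (237 to 322) at IR day 3, 300.1 CPM (223 to 395) at IR day 14 and 13.1 CPM (2.69 to 38.2) after MI. Within 1 cluster its low levels thus fell on the same groups as over all cardiomyocytes. Slc16a1 was at 245 CPM (154 to 371) at IR day 1, 279 CPM (239 to 324) at IR day 3 and 13.1 CPM (2.69 to 38.2) after MI, so among these groups it was low after MI alone. Pygm was at 334 CPM (225 to 477) at IR day 1, 872 CPM (799 to 948) at IR day 3, 1336 CPM (1168 to 1521) at IR day 14 and 222 CPM (165 to 292) after MI. Pgam1 was at 271 CPM (231 to 315) at IR day 3 and 688 CPM (585 to 804) after MI.

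The mix of paired forms was compared as a share per plate. Ldhb was 67.6% ± 5.07 (SD, n = 9) of Ldha plus Ldhb on sham plates, with a range of 59.5% to 77.8%. It was 45%, 29.4% and 31.7% on the IR day 1 plates, 52.4%, 53.1%, 62.2%, 58.1% and 44.6% on the IR day 3 plates, 68.1%, 65.3% and 62.3% on the IR day 14 plates, and 37.9% and 37.4% on the MI plates. The IR day 1 and MI plates lay below the sham range, those of IR day 14 within it. On the IR day 1 plates the shares rest on 9, 5 and 13 UMIs of Ldhb and 11, 12 and 28 of Ldha. In a two-sided exact permutation test of IR day 3 against sham, p was 0.002 and 0.0579 after adjustment over the 29 share tests run. In 4 of the 29, all of Eno3, the share was 100% on every plate compared and could not differ. Adjusted over the other 25, a choice made after seeing the data, p was 0.04995, so the call depends on which tests are counted. For MI against sham the exact p was 0.0364 and 0.166 adjusted, and for IR day 1 against sham day 1 it was 0.0571 and 0.166 adjusted. Both are the smallest p that the two-sided test can give with these numbers of plates, so IR day 1 could not pass 0.05 even before adjustment.

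The share of Pgam2 in its pair was 82.4% ± 8.63 (SD, n = 8) on sham plates, 62.9% ± 6.35 (SD, n = 4) at IR day 3 and 47.1% ± 1.89 (SD, n = 2) after MI (exact permutation p = 0.0121 and 0.0444, both 0.166 adjusted). Hk2 was 66.1% ± 11.9 (SD, n = 8) of the hexokinases on sham plates and 10% and 38.5% on the MI plates, and Pfkm was 83.9% ± 5.22 (SD, n = 8) of the phosphofructokinases and 25% and 56.7%. These MI shares rest on few UMIs, 1 and 5 of Hk2 beside 9 and 8 of Hk1, and 6 and 17 of Pfkm. Pygm was 75.3% ± 4.72 (SD, n = 9) of the phosphorylases on sham plates and 54.3% and 58.3% on the MI plates. Adjusted over all 29, 0 share tests passed 0.05, with 7 at an unadjusted p under 0.05. Beside the shares, the macrophage list, whose class holds almost no Ldhb, Pgam2 or Pygm, summed to 0 to 144 CPM in sham cardiomyocytes, 185 to 1302 CPM at IR day 3 and 139 to 362 CPM after MI, and its part was not tested.

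**Figure D3:**
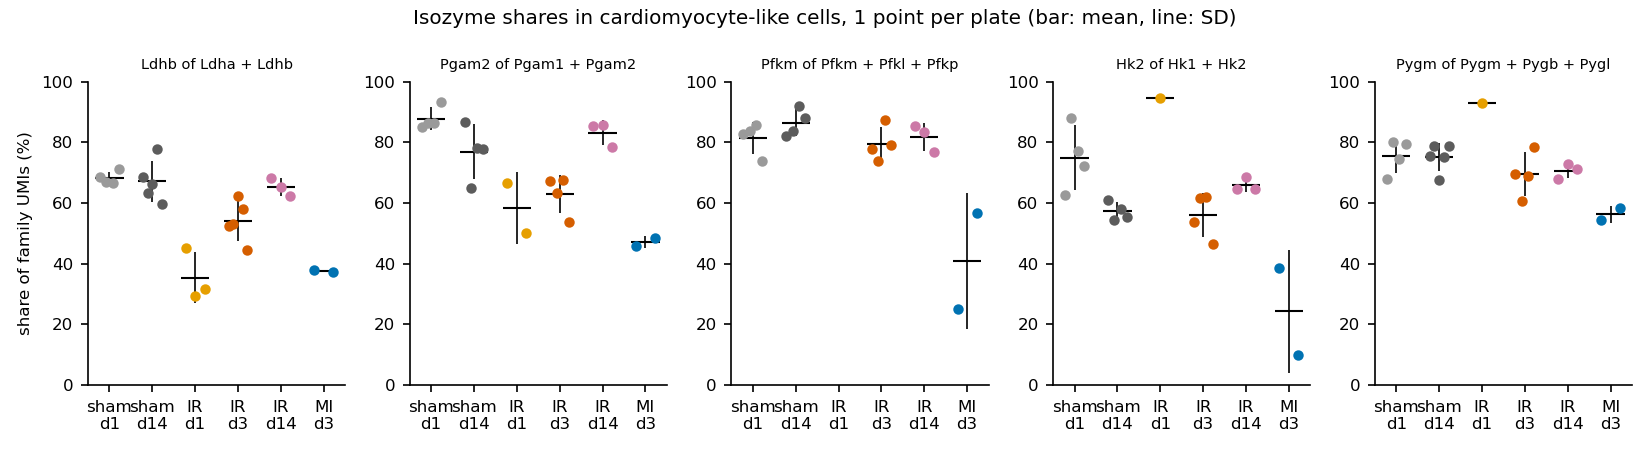
Share (percent) of Ldhb, Pgam2, Pfkm, Hk2 and Pygm in the summed UMIs of their gene family in cardiomyocytes, per plate and group (points, plates; bars, mean). The MI plates lie below the sham range in each family, with Ldhb at 37.4% and 37.9% against 59.5% to 77.8%. The Hk2 shares of the MI plates rest on 1 and 5 UMIs of Hk2.

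In macrophages, too, more members fell than rose. From IR day 1 (9 plates) to IR day 3 (6 plates), 13 of 22 members tested fell (12.1% of the 5133 genes tested fell). The 3 that rose were a share near the background (14.1% of all genes rose). The median was -1.04 over the members and 0.05 over all genes. Summed, the 32 genes made up 1.08% to 1.87% of macrophage UMIs at IR day 1 and 0.448% to 0.788% at IR day 3, without overlap. The 10 members with too few counts were Slc2a4, Pfkm, Pfkfb1, Pfkfb2, Pgam2, Eno1, Slc16a1, Pgm2, Pygm and Fbp2. RLE scaling called the same members. With finer clusters (resolution 2), 5 of 21 members tested passed, and 489 of all 4711 genes did, against 1348 of 5133 as reported. Those clusters left 4 IR day 1 plates instead of 9. With each cell thinned to 1000 UMIs, 5 of 8 members tested passed, and 177 of all 486 genes did. The median over the members was -0.66 at resolution 2 and 0.00 without the gene filter, where all 32 were tested.

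The carriers had the largest falls. Slc2a1 was at 121, 186 and 301 CPM (lowest, median and highest) at IR day 1 and at 0, 3.69 and 30.8 CPM at IR day 3, a log2 difference of -3.60 ± 0.35 (adjusted p = 2.45e-08, edgeR). Slc16a3 was at 139, 271 and 344 CPM and then at 0, 10.3 and 35.7 CPM (-3.10 ± 0.36, adjusted p = 3.55e-07, edgeR). For both genes every IR day 1 plate lay above every IR day 3 plate. On the 3 sham day 1 plates, with 7 macrophages each, Slc2a1 was at 16.8, 58.8 and 107 CPM, below every IR day 1 plate. Slc16a3 was at 33.6, 235 and 427 CPM on the same sham plates, which overlapped with IR day 1, so its level at IR day 1 did not stand above sham. No test against sham was run in macrophages. Neutrophil markers moved with the fall: in these macrophages the list of 6 summed to 104, 765 and 2176 CPM at IR day 1, to 34, 101 and 122 CPM at IR day 3, and to 151, 335 and 382 CPM on the sham plates. In neutrophils of IR day 1, Slc16a3 was at 234 to 1051 CPM and Slc2a1 at 65.7 to 359 CPM. Without cells in which markers of another class made up over 1% of UMIs, the differences were -3.62 for Slc2a1 and -3.06 for Slc16a3 (adjusted p = 2.34e-08 and 4.01e-07, edgeR). That cut leaves cells with smaller amounts of neutrophil RNA, whose part was not tested.

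Most enzymes between them fell as well. Log2 differences were -1.82 for Hk2, -1.50 for Gpi1, -1.89 for Pfkl, -0.86 for Pfkp, -1.13 for Aldoa and -1.06 for Tpi1, all past the threshold. Pfkl, the liver form of phosphofructokinase, was at 56.2, 111 and 208 CPM at IR day 1 and at 0, 29.2 and 41.1 CPM at IR day 3, without overlap (adjusted p = 4.68e-05, edgeR). Pgk1, Pkm and Ldha fell too (-1.26, -1.30 and -1.02), and the median of Ldha, which turns pyruvate into lactate, went from 1535 to 639.9 CPM, without overlap between 1035 to 2053 and 586 to 944 CPM. Pkm, at 1822 to 4396 and 611 to 2196 CPM, overlapped. Gys1 fell by 1.23 (adjusted p = 0.0181, edgeR).

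Gapdh, the enzyme before Pgk1, fell by 3.01 (adjusted p = 7.42e-08, edgeR), from 1659, 2415 and 3006 CPM to 94.4, 261 and 805 CPM. This gene also differed between plates of 1 group. Over all kept wells it was at 41.3 to 1329 CPM on the sham day 14 plates, with 5 of 7 distinct plates below the lowest sham day 1 plate (500.1 CPM), and at 93.3 to 826 CPM at IR day 3, against 1127 to 2086 CPM at IR day 1, 900.0 to 1451 CPM at IR day 14 and 799 to 1258 CPM after MI. The sham day 14 plates that were low over all wells were also low in cardiomyocytes (replicates 2, 6 and 8 at 339, 91.1 and 215 CPM, replicates 1 and 5 at 1267 and 1729.7 CPM). The part of this plate difference in the Gapdh results was not tested.

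Of the 3 members that rose, Ldhb went from 0, 0 and 12.1 CPM at IR day 1 to 0, 32.8 and 74.9 CPM at IR day 3 (3.21 ± 0.59, adjusted p = 1.37e-04, edgeR) and Eno3 from 0, 10.4 and 42.4 to 0, 53.6 and 136 CPM (2.20 ± 0.61, adjusted p = 0.00736, edgeR). Pygb rose by 1.24 ± 0.41 (adjusted p = 0.0245, edgeR), a call that was lost on leaving out any 1 of 7 of the plates. Ldhb and Eno3 are the cardiomyocyte forms, and the summed cardiomyocyte markers in the same macrophages were at 115, 365 and 964 CPM at IR day 1 and 634, 2247 and 3255 CPM at IR day 3, whose part was not tested. Of the further genes 11 were tested. Hk3, a hexokinase of myeloid cells (1.45 ± 0.33), Gyg (2.40 ± 0.28) and Gaa (1.40 ± 0.33) rose, while Ppp1r3b, another glycogen-binding phosphatase subunit (-2.11 ± 0.44), and Gsk3b (-0.74 ± 0.27) fell.

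At day 3, 10 of the 12 members that differed in macrophages were higher after MI than after IR. Of the 22 tested, 10 were higher (4.81% of all genes were higher) and 2 lower (4.42% of all genes were lower), and the medians were 0.69 over the members and -0.03 over all genes. Both this comparison and the one above use the IR day 3 plates, so a low level there enters both. Slc2a1 was at 94, 99.6 and 117 CPM (lowest, median and highest of 5 MI plates), a log2 difference of 2.71 ± 0.34 (adjusted p = 3.01e-06, edgeR), and Slc16a3 at 178, 212 and 229 CPM (2.85 ± 0.36, adjusted p = 3.01e-06, edgeR). Neither gene overlapped with IR day 3, and both medians lay below those of IR day 1. The neutrophil list summed to 321 to 736 CPM in these macrophages after MI, above the 34 to 122 CPM at IR day 3. Without mixed cells the differences were 2.69 for Slc2a1 and 2.84 for Slc16a3 (adjusted p = 4.40e-06 for both, edgeR). As above, smaller amounts of neutrophil RNA stay in under that cut, and their part was not tested. Ldha was at 1159 to 1463 CPM, Aldoa at 1249.7 to 1481 CPM and Pkm at 2239 to 2701 CPM after MI, each above its IR day 3 range (0.86 ± 0.26, 1.05 ± 0.22 and 0.93 ± 0.27, adjusted p = 0.0293, 0.00184 and 0.0248, edgeR). The Ldha call was lost on leaving out any 1 of 6 plates (IR day 3 replicate 1 or 6, MI replicate 1, 3, 4 or 5, with 0.83 to 0.88) and the Pkm call for 5 (IR day 3 replicate 4 or 7, MI replicate 3, 4 or 5, with 0.90 to 0.95). Pfkl (1.60 ± 0.30), Gpi1 (1.12 ± 0.25), Tpi1 (0.96 ± 0.27), Pgk1 (1.04 ± 0.29) and Gapdh (2.04 ± 0.32) were also higher. Ldhb (-2.23 ± 0.40) and Eno3 (-1.98 ± 0.47) were lower, and cardiomyocyte markers in these cells were at 131 to 688 CPM after MI. Of the further genes, Ppp1r3b was higher (1.57 ± 0.41), and Gaa (-1.16 ± 0.29) and Gyg (-1.51 ± 0.23) were lower. With MI as a separate library batch, the part of the batch cannot be told apart.

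**Figure D4:**
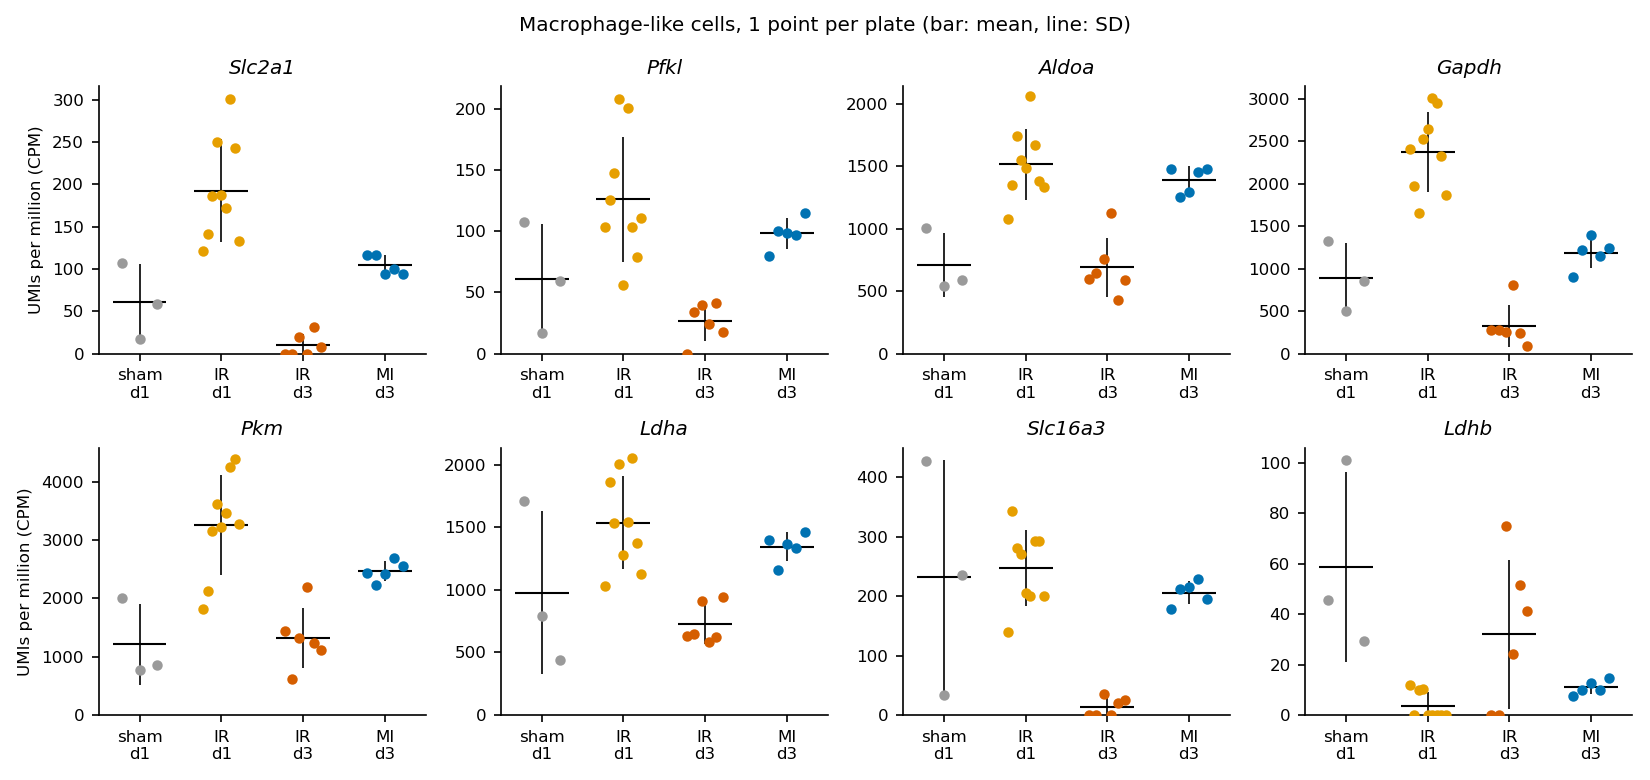
Level in macrophages (CPM) of Slc2a1, Pfkl, Aldoa, Gapdh, Pkm, Ldha, Slc16a3 and Ldhb per plate at sham day 1, IR day 1, IR day 3 and MI day 3 (points, plates; bars, mean; lines, SD). Slc2a1 and Slc16a3 are at or under 35.7 CPM on the IR day 3 plates and at or above 94 CPM on the IR day 1 and MI plates.

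Macrophages fell into different clusters by group. Most of those at IR day 1 and after MI lay in cluster 2 (led by Ccr2) and most of those at IR day 3 in cluster 9 (led by Gpnmb). Within cluster 2, with 86, 27 and 228 cells, pooled Slc2a1 was at 216 CPM (95% Poisson interval 186 to 249) at IR day 1, 25.6 CPM (10.3 to 52.7) at IR day 3 and 109 CPM (101 to 118) after MI. Slc16a3 was at 279 CPM (245 to 317), 51.2 CPM (28 to 85.9) and 197 CPM (186 to 208). Within cluster 10, led by genes of resident macrophages such as Cd163 and Lyve1, Slc2a1 was at 131 CPM (85.6 to 192), 0 CPM (up to 25.2) and 101 CPM (85.2 to 118). The order of the groups was thus the same within these clusters as over the class for both genes in cluster 2 and for Slc2a1 in cluster 10, whereas Slc16a3 in cluster 10 was higher after MI (259.6 CPM, 234 to 287) than at IR day 1 (156 CPM, 106 to 222).

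In endothelial cells, Slc2a1 was higher at IR day 1 and after MI than after sham surgery. At IR day 1 against sham day 1, 4 of 20 members tested rose (6.27% of the 3272 genes tested rose) and 8 fell (9.44% of all genes fell), with medians of -0.56 over the members and -0.03 over all genes. Slc2a1, the glucose carrier of vessel lining cells, was at 20, 7.91, 7.68 and 0 CPM after sham and at 0, 138 and 209.6 CPM (lowest, median and highest of 8 plates) after IR (3.55 ± 0.72, adjusted p = 6.04e-04, edgeR). The groups overlapped through 2 IR plates at 0. Pkm was at 280.4 to 395 CPM after sham and 662 to 1351 CPM after IR, without overlap (1.36 ± 0.33, adjusted p = 0.00355, edgeR). Pgk1 (1.24 ± 0.36) and Pgam1 (1.27 ± 0.37) rose as well. Slc16a3, too low for the test, had 36 UMIs after IR and 2 after sham, a 21-fold higher level (95% counting interval 5.41 to 180.3).

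The 8 that fell were Slc2a4, Pfkm, Pgam2, Eno3, Ldhb, Slc16a1, Pygm and Pygb, with log2 differences of -4.08, -3.32, -3.35, -2.49, -3.46, -3.30, -3.14 and -2.12. Slc2a4 had 2 UMIs after IR and 48 after sham, 20.5-fold lower (95% counting interval 5.39 to 174), and Slc16a1 3 and 33, 9.42-fold lower (2.95 to 48). These are mostly the genes that were highest in cardiomyocytes. The summed cardiomyocyte markers in the same endothelial libraries were at 13412 to 17979 CPM at sham day 1 and 238 to 11894 CPM at IR day 1, and their part was not tested. Without cells in which markers of another class made up over 1% of UMIs, 3 members passed: Slc2a1, which rose, and Ldhb and Pygm, which fell. The median over the members then turned from -0.56 to 0.42, with -0.02 over all genes, and it was 0.07 with at least 10 cells and 0.01 with wells of 2000 UMIs. Most sham day 1 cells lay in cluster 4 (80 of 114) and most IR day 1 cells in cluster 11 (43 of 75), so the kinds of endothelial cells differed too.

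After MI against sham, 4 of 20 members rose in endothelial cells, a share near the background (18.6% of all genes rose), and 10 fell (18.7% of all genes fell), with medians of -0.70 over the members and 0.04 over all genes. Slc2a1 was at 49.9, 65.6 and 109.7 CPM on 5 MI plates and at 0, 7.79 and 23.5 CPM on 8 sham plates, without overlap (2.49 ± 0.58, adjusted p = 9.20e-04, edgeR). Pkm (1.71 ± 0.28), Pgk1 (1.50 ± 0.30) and Pgam1 (1.73 ± 0.32) rose. Slc16a3 had 86 UMIs against 3, a 22.1-fold higher level (95% counting interval 7.32 to 109). Besides the 8 genes named at IR day 1, Hk2 (-2.74 ± 0.77) and Aldoa (-0.88 ± 0.27) fell. Slc2a4 was at 0 UMIs against 89, at least 38.4-fold lower, and Pgam2 at 1 UMI against 166, 215-fold lower (95% counting interval 38.1 to 8548). Ldhb was at 0 to 21.9 CPM after MI against 211 to 812 CPM, while cardiomyocyte markers were at 45.3 to 275 CPM against 12403 to 37294 CPM. The part of these markers was not tested. Without mixed cells 10 members passed, 7 of them higher, and the median over the members turned from -0.70 to 0.48, with 0.24 over all genes. With wells of 2000 UMIs it was 0.23. Of the MI endothelial cells 53 of 57 lay in cluster 11, against 6 of 114 at sham day 1 and 3 of 82 at sham day 14, most of which lay in cluster 4.

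Fibroblasts were compared at day 3 between MI and IR. Of the MI fibroblasts 131 of 132 lay in cluster 5 (led by Cxcl5 and Has1), and of those at IR day 3, 36 of 56 did and 20 lay in cluster 14 (led by Pi16 and Inmt), so the kinds of fibroblasts differed between the groups. Of 26 members tested, 6 were higher after MI (3.18% of the 5968 genes tested were higher) and 6 lower (5.38% of all genes were lower), with medians of 0.58 over the members and 0.03 over all genes. Ldha was at 1539, 1502, 1709, 1676 and 1472 CPM after MI and at 244, 751, 771 and 675 CPM after IR, without overlap (1.28 ± 0.37, adjusted p = 0.0321, edgeR). Hk2 (1.26 ± 0.37), Aldoa (1.07 ± 0.34), Gapdh (2.39 ± 0.43), Pgk1 (1.24 ± 0.36) and Pkm (1.26 ± 0.35) were also higher. The plate difference of Gapdh given above applies here too. Leaving out 1 of the 9 plates at a time ended the Aldoa call for 8 of them (all but IR day 3 replicate 5), the Ldha call for 7 (all but IR day 3 replicate 5 and MI replicate 5), the Pgk1 call for 5, the Hk2 call for 4 and the Pkm call for 2 (IR day 3 replicates 3 and 7). Log2 differences in those fits were 0.89 to 1.32 for Aldoa and 1.03 to 1.45 for Ldha, and the Gapdh call was not lost.

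Ugp2 was at 128, 132, 114, 113 and 144 CPM after MI and at 183, 363, 398 and 207 CPM after IR, without overlap (-1.27 ± 0.30, adjusted p = 0.00913, edgeR). The other 5 lower members were Slc2a4, Pfkfb2, Pgam2, Ldhb and Pygm (-5.31, -2.29, -4.26, -2.63 and -5.10). Of these, Slc2a4 had 2 UMIs after MI against 12, 88-fold lower given the larger MI libraries (95% counting interval 19.6 to 809.8), but 10 of the 12 were on IR day 3 replicate 4 and replicates 3 and 7 had 0, so the groups overlapped. Pgam2 had 2 UMIs against 5, 36.7-fold lower (6 to 385). Without IR day 3 replicate 4, the calls of Slc2a4 (-4.32, adjusted p = 0.248), Ldhb (-2.06, adjusted p = 0.229), Ugp2 (-1.01, adjusted p = 0.108), Pgam2 and Pfkfb2 were lost (edgeR). Cardiomyocyte markers in these fibroblasts were at 1119 to 6344 CPM after IR and 22.3 to 185 CPM after MI, and their part was not tested. Of 10 further genes tested, Gaa was lower (-1.57 ± 0.42). Without IR day 3 replicate 3, 4 or 7, 7, 5 and 5 members passed. The split between higher and lower also depended on the setting: 12 were higher and 4 lower with at least 10 cells, 7 and 4 without mixed cells (median 1.07 over the members), 4 and 0 with cells thinned to 1000 UMIs (6 members tested), 6 and 8 with finer clusters (resolution 2, median 0.18), and 1 and 2 with the replicate block (median 0.32).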

How the data were processed

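Per the labels and the study's methods, the authors mapped paired-end reads of SORT-seq plates with BWA (its ALN mode) to GRCm38/mm10 and deposited UMI counts per gene and well for 36 plates. Versions and the gene annotation are not given in the sources used here. The highest deposited count is 4096, the number of tags that 6 bases allow, so no correction for 2 molecules with the same tag had been applied. Rows without a gene held 0% of UMIs. Mitochondrial and spike-in rows were left out.

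Wells with at least 1000 UMIs were clustered with scanpy 1.11.5 and leidenalg 0.10.2 (2000 variable genes without the 32 members, 30 components, 15 neighbours, resolution 1) and clusters named from marker lists. Doublets were not called. Counts were summed per class and plate (at least 5 cells). Cardiomyocyte libraries held 6209 to 857610 UMIs and macrophage libraries 28370 to 1983741, so a low level on a small library rests on few UMIs, and intervals cover counting error only. Each class was fitted once over all its plates with edgeR 4.0.16 in R 4.3.3 (filterByExpr, TMM, quasi-likelihood test, Benjamini-Hochberg over all genes, threshold 0.05), giving 11 comparisons over 4 classes. Day 3 groups were set against both sham groups with equal weight. SE is the log2 fold change divided by the square root of F. Shares within 7 gene families used plates with at least 10 UMIs of the family and a two-sided exact permutation test. Scripts were tested on simulated data.

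Members that passed are named with values. The largest difference that did not pass is named for cardiomyocytes at IR day 1, day 3 and day 14 against sham. The members, the marker lists and the list of 52 further genes were chosen with earlier results of these data known. Some of the further genes are not reported here. Alternatives were DESeq2 1.42.0, RLE scaling, no gene filter, at least 2 or 10 cells, wells of 2000 UMIs, cells thinned to 1000 UMIs, no Rn45s, no mixed cells, copied wells kept, members kept in clustering, resolution 2, each sham group alone, a replicate block, and each plate left out.

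Replicate numbers did not pair plates (median correlation of deviations between cardiomyocyte plates of the same number -0.00149, with 2 of 29 pairs over 0.1), so no block was used.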

Additional observations from a re-analysis of the deposited data

Results flagged for a closer look

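The IR effect in cardiomyocytes at day 1 minus that at day 14, tested as an interaction in edgeR, passed for 7 members: Slc2a4 (log2 difference -5.03), Gpi1 (-2.57), Pfkm (-3.30), Pfkfb2 (-7.98), Ldhb (-2.55), Pygm (-2.40) and Pygb (-4.69).

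In 11 of 138 groups of plates tested, 1 plate lay further from the others than Dixon's 95% limit allows. Chance gives about 1 in 20. In cardiomyocytes of sham day 1, replicate 4 had a Pgam2 share of 93.4% (others 85% to 86.4%) and Pgam1 at 36 CPM (86.2 to 94.9), replicate 1 had Eno3 at 1013 CPM (752 to 784), and replicate 3 had Fbp2 at 64.6 CPM (27.5 to 32.3). At sham day 14, replicate 6 had Pfkfb2 at 273 CPM (114 to 136), a plate of 7 cells, and replicate 5 had Pygb at 804 CPM (316 to 364). At IR day 3, replicate 3, with 5 cells, had Slc16a1 at 0 CPM (240.3 to 310.2), and replicate 6 had Fbp2 at 98.9 CPM (0 to 24.5). In macrophages, MI replicate 4 had Pfkp at 107 CPM (84.2 to 89) and IR day 3 replicate 5 had Gapdh at 805 CPM (94.4 to 282). The same IR day 3 plate also had the highest Gapdh of its group over all kept wells, 826 CPM against 93.3 to 289.8. In fibroblasts, the 32 genes summed to 1.02% of UMIs on MI replicate 3 (0.881% to 0.914% on the others).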

How the results depend on the processing

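No called member changed direction in any alternative fit that tested it. Of the alternative values for single called members, 2278 kept their side of the threshold and 287 lost it. Fits in which a called member had too few counts to test are in neither number. The fits include ones close to the main fit, such as copied wells kept. Counts of members called moved by over 1.5 times as follows. Thinning each cell to 1000 UMIs, which left far fewer genes to test (1187 in cardiomyocytes, 486 in macrophages), gave 7 at IR day 1 in cardiomyocytes (11 as reported), 9 for MI against sham (15), 1 and 2 in endothelial cells at IR day 1 (12) and MI (14), 4 in fibroblasts (12), and 5 and 2 in macrophages (16 for IR day 3 against day 1, 12 for MI). RLE scaling gave 6 at IR day 1. Without the gene filter, MI against sham gave 9 and MI against IR day 3 gave 5 (10). For IR day 3 against sham (1), at least 10 cells gave 2, wells of 2000 UMIs 2, sham day 1 alone 2 and sham day 14 alone 0. Wells of 2000 UMIs gave 7 for macrophages after MI. Resolution 2 gave 11 for the interaction (7) and 5 for macrophages at IR day 3 against day 1, where it left 4 of 9 IR day 1 plates. Without mixed cells, endothelial IR day 1 gave 3. With plates of at least 2 cells, 3 isozyme shares passed (0 as reported), and with constant shares left out of the adjustment, an alternative chosen after seeing the data, 1 passed. At least 10 cells left no MI cardiomyocyte plate, so no value. The causes were not tested. The difference in Ldhb share between IR day 14 and sham day 14, -1.81 percentage points and not significant, turned to 0.866 with at least 10 cells, 0.643 after thinning, 0.866 with at least 20 UMIs of the family and 0.866 without sham day 14 replicate 6, with a range of -3.71 to 0.866 over plates left out.

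Leaving out 1 plate at a time gave 7 to 10 members at IR day 1, 0 to 2 at IR day 3, 0 to 0 at IR day 14, 6 to 7 for the interaction, 5 to 15 for MI against sham and 3 to 12 for MI against IR day 3 in cardiomyocytes, 9 to 12 and 11 to 15 in endothelial cells (IR day 1, MI), 5 to 13 in fibroblasts, 13 to 16 and 8 to 12 in macrophages (IR day 3, MI), and 0 to 1 for isozyme shares (1 without sham day 14 replicate 8).

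With the replicate number as a block, which the numbers do not justify as a pairing of plates, MI against sham in cardiomyocytes gave 11, MI against IR day 3 gave 3, IR day 3 against sham 0, fibroblasts 3 and macrophages after MI 7.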
